A study of Mus musculus with 58 samples.

Results

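Microglia of mice that lack Sgsh were compared with wild-type (WT) microglia at 3 weeks of age, the youngest age of the study, across all genes. The 7 libraries were chosen by the genotype and age in their titles, and comprise 4 SgshKO and 3 WT libraries out of 58 in the series and 22 in its age series. The mice were of the C57BL/6 strain, and none of these 7 libraries belongs to a group given an antisense oligonucleotide. Per the labels' protocols, forebrains were dissociated mechanically, live single cells that were CD11b+, CX3CR1+ and low in CD45 were sorted, and poly(A) RNA was sequenced from strand-marked (dUTP) libraries. The age series also holds 2 WT and 2 SgshKO libraries at 4 months and 4 WT and 7 SgshKO libraries at 8 months, which were used to share the estimate of spread and to set the early difference beside the later ones. The labels do not describe the Sgsh allele or the sex of the mice, and they do not say whether a library is 1 animal. The p-values therefore measure the spread between these libraries, which may in part be technical.

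Sgsh encodes the lysosomal sulfatase that removes the N-linked sulfate from glucosamine at the end of a heparan sulfate chain. Without it the chains cannot be taken apart and are stored in lysosomes, and in people its loss causes Sanfilippo syndrome, a childhood disease of the brain. Microglia, the resident macrophages of the brain, carry many lysosomes and take up material from their surroundings. Lysosomal genes are switched on together by the MiT/TFE transcription factors Mitf, Tfeb, Tfe3 and Tfec, which bind the CLEAR element, a short motif in lysosomal gene promoters. Folliculin and the Rag GTPases at the lysosome surface control where these factors reside.

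The 7 libraries held 10648847 to 22067656 counts. Across genes, log2 CPM (counts scaled to a common library size with TMM factors) correlated with r of 0.974 to 0.986 within WT, 0.962 to 0.988 within SgshKO and 0.958 to 0.984 between the genotypes. Defining microglial genes were abundant: Csf1r, the receptor that microglia need to survive, was at 14349, 14486 and 14408 CPM in WT and 12239.8, 13839, 14154 and 12761 CPM in SgshKO, and Tmem119 at 3057, 3326 and 3162 and 2012, 2474, 2627 and 2274 CPM. The 10 microglial marker genes summed to 53768 to 54878 CPM in WT and 47018 to 51365 CPM in SgshKO, without overlap. Of these, 3 were called lower and 0 higher (2 and 1 without SgshKO replicate 1, 1 and 0 with the replicate number as a block). Over all genes tested, 3.81% were called lower and 5.28% higher. Markers of several other cell types were summed: 1.62 to 30.9 CPM in sum for the 10 neutrophil genes, 8.84 to 16.6 CPM for the 10 monocyte genes and 0.670 to 4.04 CPM for the 10 lymphocyte genes. The erythrocyte genes summed to 459.8, 1113 and 168 CPM in WT and 98.7, 344, 611 and 69.7 CPM in SgshKO, and the groups overlapped. None of the neutrophil, monocyte, border macrophage, lymphocyte, oligodendrocyte or erythrocyte genes tested passed the test in either direction. The border macrophage list summed to 65.0 to 84.6 CPM in WT and 93.4 to 122 CPM in SgshKO, with 1 of its 10 genes at 0 in all 7 libraries. Astrocyte markers summed to 155 to 166 CPM in WT and 192 to 268 CPM in SgshKO, and neuron markers to 11.3 to 13.1 and 16.7 to 26.2 CPM. Slc1a3 (0.50) and Camk2a (0.92) were called higher in these 2 lists, and no gene of either without SgshKO replicate 1. Slc1a3 kept its call only without SgshKO replicate 3 (adjusted p of up to 0.165), and Camk2a lost it also without WT replicate 1 (up to 0.0579). Their part in other results was not tested. Xist, the transcript of the inactive X chromosome, was at 1444 CPM or more in all 7 libraries and the Y-linked Ddx3y at 0.21 CPM or less. In bulk RNA, fewer cells of a type and less RNA per cell cannot be told apart.

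SgshKO replicate 1 stood apart in genes that respond to tissue dissociation. The 23 genes of that list summed to 29874, 6443, 8453 and 13629 CPM in SgshKO replicates 1 to 4 and 6517, 10068 and 9188 CPM in WT replicates 1 to 3. Fos, an immediate early gene, was at 4017, 479, 689.8 and 1607 CPM in SgshKO and 524, 1020.0 and 944 CPM in WT. Replicate 1 lay far above the range of WT in both, and replicate 4 above it by less. All 23 genes had a positive log2 fold change, with a median of 0.997 (0.29 without SgshKO replicate 1). With all libraries, 3 of the 23 were called higher (Atf3, Nr4a1 and Hsp90aa1), and 0 without SgshKO replicate 1. The main counts below are therefore also given without SgshKO replicate 1. The first 2 components of the 7 libraries held 29.7% and 28.3% of the variance. The first placed all 3 WT libraries at -21.1 or below and all 4 SgshKO libraries at 8.38 or above. On the second, SgshKO replicate 1 lay at the lower extreme (-57.3) and WT replicate 2 at the upper (31.7).

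**Figure D1:**
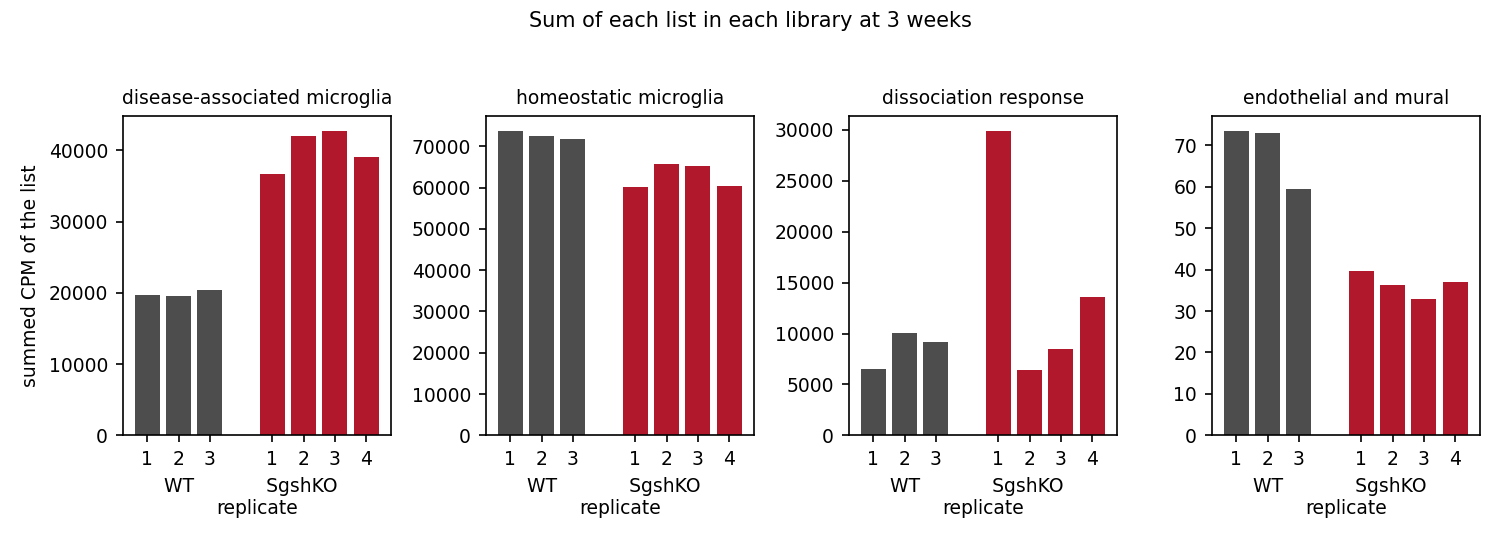
Summed CPM (y axis) of 4 gene lists in each library at 3 weeks (x axis, by genotype and replicate; bars are single libraries, without error). In every SgshKO library the disease-associated list is above, and the homeostatic and endothelial lists below, all WT libraries, and SgshKO replicate 1 reaches 29874 CPM for the dissociation list against at most 10068 in WT.

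Sgsh transcript was present in both genotypes. Sgsh (chr11:119343489-119355510, mm10) was at 20.3, 24.9 and 25.9 CPM in WT and 20.9, 14.9, 16.6 and 23.4 CPM in SgshKO libraries. The groups overlapped, with a log2 difference of -0.32 ± 0.20 (SE; adjusted p = 0.427). The counts cover the whole gene and the labels do not say which part of it was altered, so the transcript level is no check of the genotype. At 8 months the same difference was -0.74 (adjusted p = 0.00041).

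Of 14309 genes tested, 1301 (9.09%) passed an adjusted p of 0.05 by edgeR's quasi-likelihood test with Benjamini-Hochberg adjustment, and these are the genes referred to here as called. 756 genes (5.28%) were higher and 545 (3.81%) lower in SgshKO, and 295 changed at least 2-fold, 194 of them upward. Each count of called list members below is to be read beside these shares of all genes. Without SgshKO replicate 1, 730 were called higher and 448 lower. On the deposited TPM, a length-scaled unit, 601 were called higher and 752 lower by limma on log2(TPM + 1), with another set of 12021 genes tested, so more genes were lower than higher there. Unit, tool and gene set changed together in that fit. The median log2 fold change over all genes tested was -0.02 with CPM and -0.06 with TPM. The values of the 2 genotypes did not overlap for 3225 genes (22.5%), among them 1254 of those called. Fold changes below are log2 values, SgshKO minus WT, with the standard error, and n at 3 weeks is 3 WT and 4 SgshKO libraries.

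**Figure D2:**
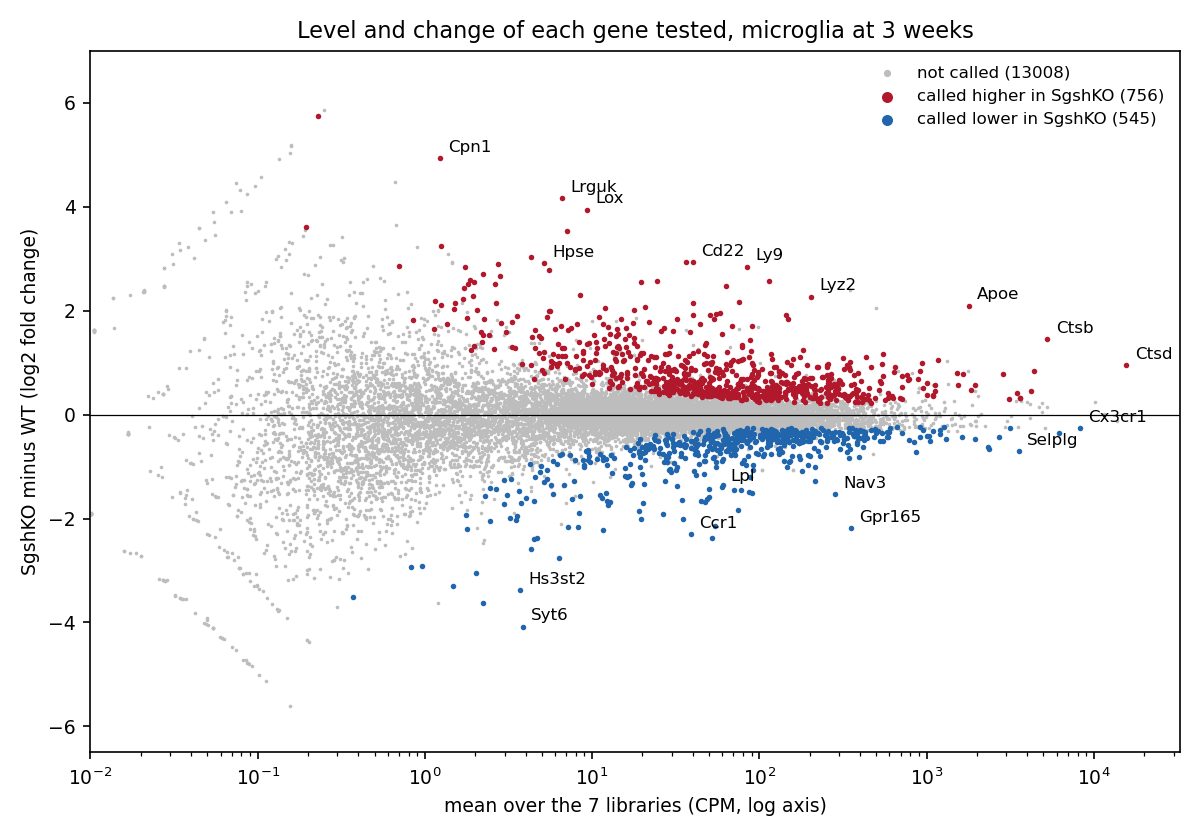
Each gene tested by its mean level over the 7 libraries (x axis, CPM, log scale) and its log2 fold change at 3 weeks (y axis). Red and blue points are the 756 genes called higher and the 545 called lower in SgshKO; the called genes span levels from under 1 CPM (Mcoln2) to Ctsd, the most abundant gene called. A gene below 0.01 CPM is not drawn.

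The genes with the largest log2 rises were low in WT, which a ranking by ratio favours. Their required mean of 1 CPM over the 7 libraries could be met through SgshKO alone, so the low WT level is no separate result. Cpn1, the catalytic subunit of carboxypeptidase N, held 3 counts in all WT libraries together and 133 in SgshKO. Scaled to depth, SgshKO held 32.7 times as much (10.9 to 160.6, the exact 95% interval for counting error). Lrguk, a protein with leucine-rich repeats and a guanylate kinase domain, was at 0.561, 0.722 and 0.558 CPM in WT and 14.9, 11.2, 6.29 and 11.8 CPM in SgshKO (4.17 ± 0.30, adjusted p = 6.22e-11). Lox, lysyl oxidase, which cross-links collagen and elastin, was at 1.26, 0.782 and 1.01 CPM in WT and 20.4, 13.7, 16.3 and 11.9 CPM in SgshKO (3.95 ± 0.33, adjusted p = 7.16e-08). For both genes the lowest SgshKO library was over 10 times the mean of WT. The genes with the largest rises and falls were named only where the groups did not overlap, so that separation was set by the choice. Scn3b, a sodium channel beta subunit (3.04 ± 0.29), Rxrg, a retinoid X receptor (3.24 ± 0.57), Lgi2, a secreted leucine-rich repeat protein (3.54 ± 0.88), Mpzl1, a cell surface glycoprotein (2.89 ± 0.51), and Clec1a, a C-type lectin (2.84 ± 0.64), also rose from 1.63 CPM or less in each WT library. Rxrg lost its call with limma on voom weights (adjusted p = 0.171).

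Several of the strongest rises were in surface receptors and glycan enzymes at moderate levels. Cd22 (chr7:30865404-30880342), an inhibitory lectin that binds sialic acid, was at 8.35, 7.46 and 9.27 CPM in WT and 65.5, 66.2, 65.3 and 57.8 CPM in SgshKO (2.93 ± 0.13, adjusted p = 1.12e-15). Ly9 (chr1:171588613-171607334), a receptor of the SLAM family, was at 21.6, 17.2 and 17.1 CPM in WT and 144, 131, 129 and 132 CPM in SgshKO (2.85 ± 0.10, adjusted p = 2.33e-18). Both receptors separated the genotypes widely, with an SD of the SgshKO libraries under 10% of their mean. Chst2 (chr9:95400926-95407270), which adds sulfate to N-acetylglucosamine of other glycans, was at 7.02, 8.31 and 7.54 CPM in WT and 53.8, 63.3, 73.9 and 42.6 CPM in SgshKO (2.93 ± 0.28, adjusted p = 9.20e-07). Anxa5, which binds phosphatidylserine, was at 5.47, 6.86 and 6.70 CPM in WT and 38.0, 35.2, 38.9 and 39.0 CPM in SgshKO (2.57 ± 0.13, adjusted p = 3.89e-14), the annexin with the largest rise. 6 of 15 annexin and S100 genes tested were called higher and 0 lower, Anxa4 (0.92) and Anxa2 (1.40) among them, with a list median of 0.42. Anxa2 lost its call with limma on voom weights (adjusted p = 0.193).

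**Figure D3:**
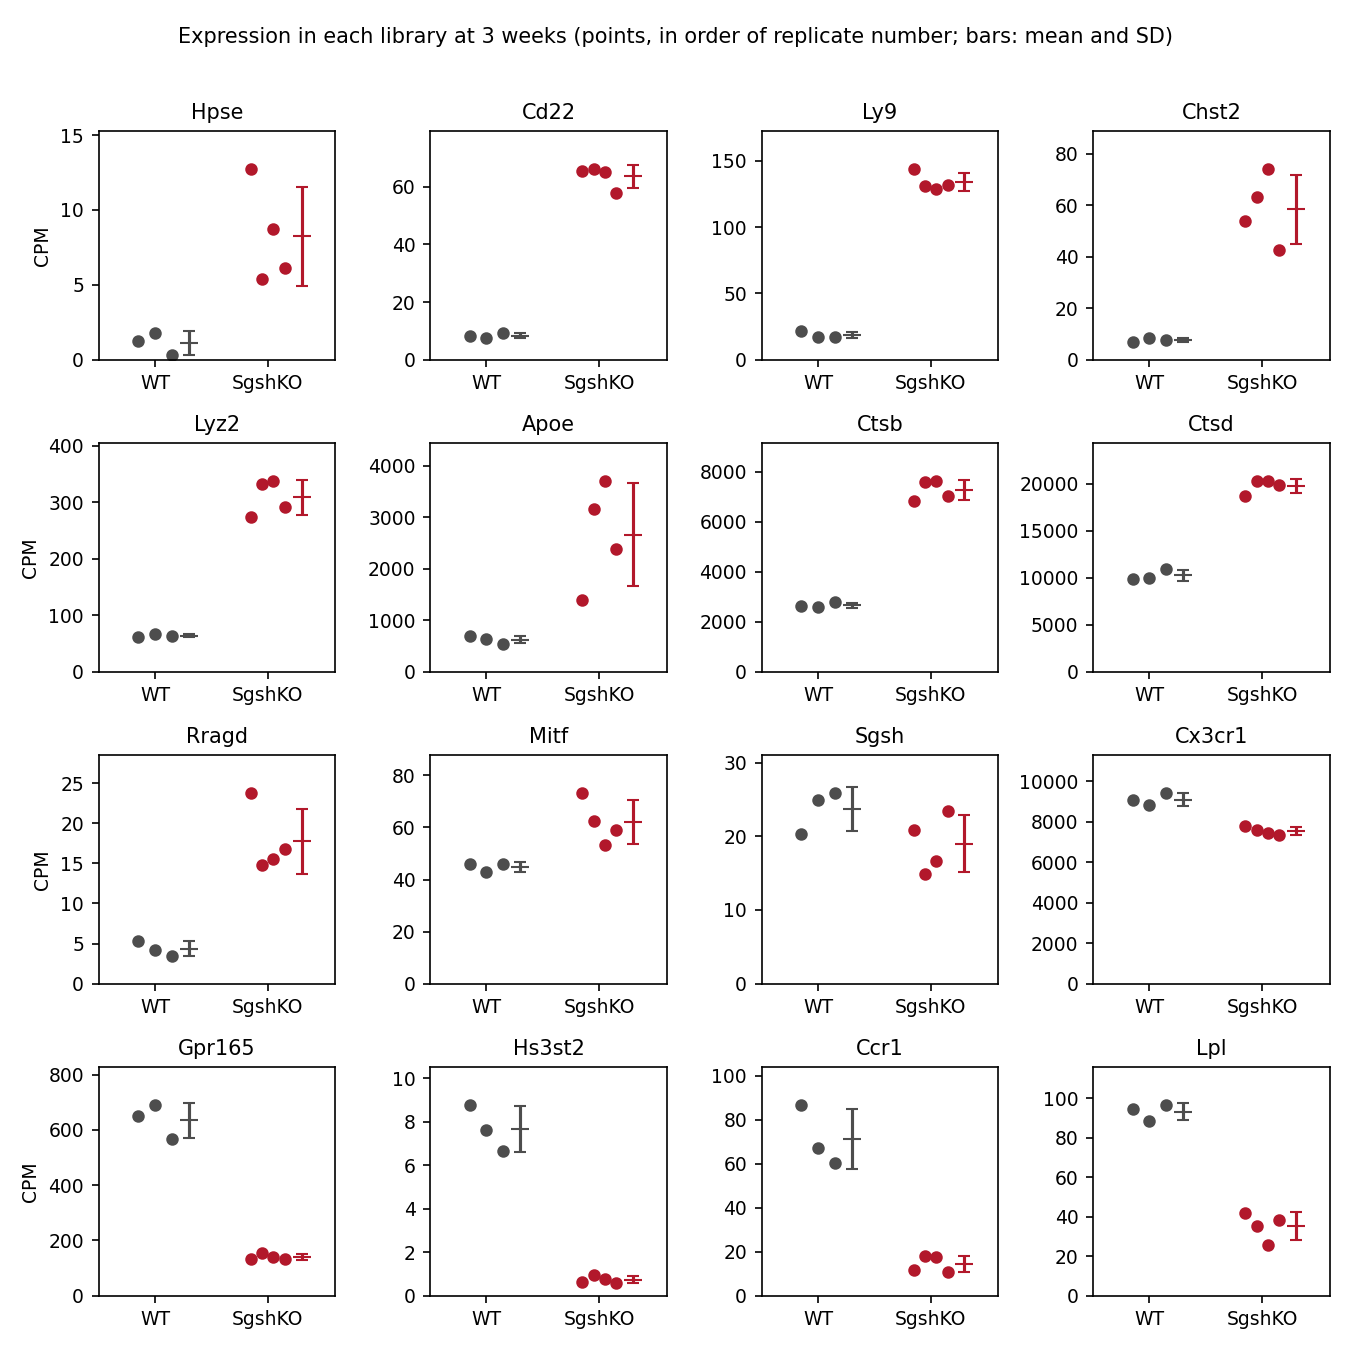
CPM (y axis, from 0) of 16 genes in each library at 3 weeks; points are libraries in order of replicate number, and the bar beside each group is its mean and SD (3 WT, 4 SgshKO). Every gene shown except Sgsh separates the genotypes without overlap, which was a condition for naming some of them, such as Cd22 and Ccr1. Apoe spreads from 1400.2 to 3703 CPM among the SgshKO libraries.

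Genes that fell most included chemokine receptors and a heparan sulfate sulfotransferase. Syt6 (chr3:103576126-103635179), a synaptotagmin of membrane fusion, was at 6.52, 9.93 and 8.49 CPM in WT and 0.380, 0.475, 0.774 and 0.365 CPM in SgshKO (-4.08 ± 0.55, adjusted p = 3.90e-06). Hs3st2 (chr7:121392296-121501768), which adds 3-O-sulfate to heparan sulfate, was at 8.77, 7.64 and 6.65 CPM in WT and 0.617, 0.951, 0.774 and 0.585 CPM in SgshKO (-3.38 ± 0.77, adjusted p = 0.00349). For both genes the highest SgshKO library was below 1 CPM and the lowest WT library above 6 CPM. Ccr1, a receptor for several CC chemokines, was at 86.7, 67.0 and 60.3 CPM in WT and 11.8, 17.9, 17.4 and 10.7 CPM in SgshKO (-2.30 ± 0.43, adjusted p = 0.00151), and its relative Ccr3 fell by 2.76 (SE 0.54). Igfbp4, a binding protein of insulin-like growth factors, was at 90.9, 102 and 95.8 CPM in WT and 14.9, 16.6, 24.9 and 18.0 CPM in SgshKO (-2.38 ± 0.41, adjusted p = 0.000813). Other genes of this group were Cdc42ep1, an effector of Cdc42 (-3.62), Klrd1, the CD94 subunit of lectin receptors (-2.59), Ctnnd2, delta-catenin (-2.40), Setbp1 (-2.37), Kbtbd11 (-3.29), Cnn2, an actin-binding calponin (-2.22), and Ptk7, a pseudokinase (-3.04). Cnn2 lost its call without SgshKO replicate 3 or without WT replicate 3 (adjusted p of up to 0.0681), and Ptk7 without any single library but SgshKO replicate 4 (up to 0.116).

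The most abundant genes that rose were mostly lysosomal, and the most abundant that fell included marker genes of resting microglia (Cx3cr1, P2ry12, Selplg and Tmem119, described below). The 5 highest among the genes called higher were Ctsd, Ctsb, Mpeg1, the pore-forming perforin-2, Psap, the precursor of the saposins, and Ctss. Ctsd, cathepsin D, was at 9854, 9974 and 10883 CPM in WT and 18635, 20267, 20239.9 and 19801 CPM in SgshKO (0.95 ± 0.08, adjusted p = 2.50e-09). Ctsb, cathepsin B, was at 2610.2, 2575 and 2773 CPM in WT and 6823, 7588, 7617 and 7020.2 CPM in SgshKO (1.45 ± 0.08, adjusted p = 1.15e-13). Every SgshKO library exceeded every WT library for both. Mpeg1 rose by 0.84, Psap by 0.45 and Ctss by 0.32.

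Lysosomal genes rose across functional classes. Over 6 lists of lysosomal genes, 74 of 152 genes tested were called higher and 4 lower, against 5.28% and 3.81% of all genes, with a median of 0.37 against -0.02. Among the enzymes of heparan sulfate breakdown, 6 of 11 were called higher and 0 lower, with a median of 0.34. Hpse (chr5:100679484-100719716), heparanase, which cuts the chains internally, was at 1.26, 1.81 and 0.279 CPM in WT and 12.7, 5.42, 8.71 and 6.14 CPM in SgshKO (2.92 ± 0.40, adjusted p = 5.23e-05). It was lowest in WT replicate 3, and every SgshKO library lay above every WT library. Arsg, the 3-O-sulfatase of the pathway, was at 59.8, 58.4 and 60.7 CPM in WT and 109, 119, 128 and 106 CPM in SgshKO (0.96 ± 0.12, adjusted p = 8.11e-07). Naglu, which removes N-acetylglucosamine, rose by 0.73, and Idua, alpha-L-iduronidase, by 0.61.

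Of 39 other lysosomal hydrolases and their helpers, 26 were called higher and 1 lower (median 0.50). Npc2, which carries cholesterol inside the lysosome, was at 338, 326 and 303 CPM in WT and 627, 761, 799.7 and 700.4 CPM in SgshKO (1.16 ± 0.09, adjusted p = 1.48e-10). Dnase2a, the acid DNase, rose by 1.10, Pld3, a lysosomal nuclease, by 1.01, and Acp5, the tartrate-resistant phosphatase, by 1.63. The exception was Naaa, an acid amidase of lipid amides, at 73.2, 73.0 and 75.8 CPM in WT and 46.3, 46.4, 53.7 and 42.3 CPM in SgshKO (-0.65 ± 0.16, adjusted p = 0.00683). 8 of 17 cathepsins and cystatins were called higher and 0 lower (median 0.69). The largest rise among them was in Cst7, cystatin F, at 7.51, 5.96 and 8.49 CPM in WT and 20.7, 25.4, 30.2 and 24.3 CPM in SgshKO (1.77 ± 0.16, adjusted p = 4.61e-09).

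Among 32 lysosomal membrane proteins and transporters, 13 were called higher and 1 lower (median 0.34). Cd63, a tetraspanin of late endosomes, was at 45.1, 38.8 and 34.7 CPM in WT and 92.0, 146, 147 and 129 CPM in SgshKO (1.70 ± 0.16, adjusted p = 3.82e-08). Lamp1, a main protein of the lysosomal membrane, rose by 0.79 and Clcn7, the chloride-proton exchanger, by 0.72. Of the mucolipin channels, Mcoln1 rose by 0.55, and Mcoln2 had 0 counts in WT and 28 in SgshKO. The filter on low counts took all ages together, and Mcoln2 had 190 counts in SgshKO at 8 months. It may thus have been tested through that group, and it was tested in 14 of the 18 settings. With no WT counts Mcoln2 has no finite ratio, and the lower end of its 95% counting interval was 5.24. Its call was lost without SgshKO replicate 1 or 4 or without any WT replicate (adjusted p of up to 0.105). It was also lost with limma on voom weights, on unfiltered TPM and with the replicate number as a block (up to 0.478). Tmem63a, a mechanosensitive channel of the lysosome, was the member that fell (-0.31 ± 0.08), a call that was lost without WT replicate 3 (adjusted p = 0.0683).

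Most subunits of the proton pump rose and a few isoforms fell. 12 of 19 V-ATPase subunits were called higher and 2 lower (median 0.51). Atp6v1a, the catalytic subunit, was at 79.1, 74.9 and 89.7 CPM in WT and 177, 150.5, 147 and 141 CPM in SgshKO (0.92 ± 0.11, adjusted p = 4.91e-07). Atp6v1c1 rose by 0.84 and Atp6v1d by 0.70. Atp6v1g2, the G subunit known from neurons, was at 11.4, 11.1 and 13.1 CPM in WT and 5.65, 6.56, 5.81 and 7.82 CPM in SgshKO (-0.88 ± 0.22, adjusted p = 0.00727). The other subunit called lower, Atp6v0a2 (-0.46), lost its call without any single library but SgshKO replicate 2 (adjusted p of up to 0.144). In the list for enzyme sorting and lysosome positioning, 9 of 34 were called higher and 0 lower (median 0.21), led by Plekhm2, an adaptor that moves lysosomes along microtubules (1.003), and Grn, progranulin (0.77). Without SgshKO replicate 1 the counts for the 6 lists were 6 of 11, 25 of 39, 8 of 17, 13 of 32, 11 of 19 and 10 of 34.

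The promoters of lysosomal genes that rose are shown because they hold the core of the CLEAR element, TCACGTGA, a palindrome that reads the same on both strands and contains the E-box CACGTG. Promoters of 300 bases, 250 before and 50 after each listed start, were matched by symbol for 10988 of the 14309 genes tested (RefSeq, GRCm38.p6). TCACGTGA lay in the promoter of 2.14% of these genes, of 4.79% of those called higher (28 of 585) and of 0.703% of those called lower (3 of 427). On the 6 lysosomal lists it lay in 14.3% (17 of 119), 10 of 60 among those called higher and 7 of 59 among the others. Among genes called higher that are not on these lists it lay in 3.43% (18 of 525). CACGTG, counted with or without its flanks, lay in 11.6% of all promoters, 18.6% of those called higher, 8.67% of those called lower and 26.1% of the lysosomal ones. Within the lysosomal lists it lay in 26.7% of genes called higher and 25.4% of the others. Off these lists it lay in 17.7% of genes called higher. The matches are a description of letters, and binding was not measured in these libraries. The 6 promoters below belong to the lysosomal genes called higher that hold TCACGTGA and have the largest log2 fold changes. Each runs 5′ to 3′ on the strand of the gene, from 250 bases before the start to 30 bases after it, with the motif in capitals. They lie at chr7:142387798-142388077 on the minus strand (Ctsd), chr16:44139230-44139509 on the minus strand (Atp6v1a), chr2:164833523-164833802 on the plus strand (Ctsa), chrX:134600976-134601255 on the minus strand (Gla), chr17:25133141-25133420 on the plus strand (Clcn7) and chr17:25240087-25240366 on the minus strand (Gnptg, the first of 2 listed starts).
Ctsd: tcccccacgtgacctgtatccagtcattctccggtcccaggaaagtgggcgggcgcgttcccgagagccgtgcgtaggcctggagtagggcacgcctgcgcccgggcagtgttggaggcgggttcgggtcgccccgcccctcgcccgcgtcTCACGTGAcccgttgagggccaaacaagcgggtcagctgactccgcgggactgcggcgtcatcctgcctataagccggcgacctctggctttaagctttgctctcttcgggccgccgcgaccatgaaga
Atp6v1a: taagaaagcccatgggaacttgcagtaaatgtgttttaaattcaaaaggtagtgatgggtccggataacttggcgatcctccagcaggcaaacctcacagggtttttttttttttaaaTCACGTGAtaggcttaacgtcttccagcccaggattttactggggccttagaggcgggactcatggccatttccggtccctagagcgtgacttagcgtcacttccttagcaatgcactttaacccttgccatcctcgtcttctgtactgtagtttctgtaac
Ctsa: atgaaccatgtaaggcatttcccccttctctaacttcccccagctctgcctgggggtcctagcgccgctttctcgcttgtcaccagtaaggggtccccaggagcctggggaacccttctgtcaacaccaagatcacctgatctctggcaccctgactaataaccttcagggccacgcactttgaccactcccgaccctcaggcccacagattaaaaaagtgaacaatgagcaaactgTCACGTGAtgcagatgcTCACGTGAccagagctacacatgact
Gla: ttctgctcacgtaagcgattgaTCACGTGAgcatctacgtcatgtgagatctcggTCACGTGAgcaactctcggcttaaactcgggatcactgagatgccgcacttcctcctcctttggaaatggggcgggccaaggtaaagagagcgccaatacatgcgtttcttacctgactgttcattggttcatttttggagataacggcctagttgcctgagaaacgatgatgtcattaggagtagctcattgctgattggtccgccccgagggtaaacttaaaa
Clcn7: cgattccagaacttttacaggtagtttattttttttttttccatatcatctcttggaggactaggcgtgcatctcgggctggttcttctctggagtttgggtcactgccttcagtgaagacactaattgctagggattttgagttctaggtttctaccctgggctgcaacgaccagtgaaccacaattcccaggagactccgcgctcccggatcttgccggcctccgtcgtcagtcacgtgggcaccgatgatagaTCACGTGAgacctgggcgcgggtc
Gnptg: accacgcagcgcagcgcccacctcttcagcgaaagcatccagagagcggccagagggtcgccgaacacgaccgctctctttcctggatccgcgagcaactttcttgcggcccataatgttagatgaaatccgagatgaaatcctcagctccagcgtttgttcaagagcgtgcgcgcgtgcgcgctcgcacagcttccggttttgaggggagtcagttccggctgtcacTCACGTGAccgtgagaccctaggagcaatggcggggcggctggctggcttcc

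Ctsa and Gla hold 2 copies each and the other genes 1. Their fold changes lay close together: 0.95 ± 0.08 for Ctsd, 0.92 ± 0.11 for Atp6v1a, 0.80 ± 0.08 for Ctsa, protective protein of the galactosidase complex, 0.78 ± 0.17 for Gla, alpha-galactosidase A, 0.72 ± 0.08 for Clcn7 and 0.60 ± 0.13 for Gnptg, a subunit of the enzyme that tags hydrolases with mannose 6-phosphate. Cst7, which rose more, holds no TCACGTGA in the window listed for it, and none is listed for Ctsb. Ctsa and Gla were outside the rule for named genes and are named for their promoters.

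Of the 4 factors that bind this motif, only Mitf was called. Mitf (chr6:97807058-98021358) was at 46.0, 42.7 and 46.1 CPM in WT and 73.2, 62.5, 53.1 and 59.0 CPM in SgshKO (0.47 ± 0.11, adjusted p = 0.00453). The lowest SgshKO library was above the highest WT library. Tfeb was at 57.5, 70.6 and 58.8 CPM in WT and 62.2, 67.5, 69.3 and 63.8 CPM in SgshKO (0.08 ± 0.13), and Tfe3 at 232, 248 and 295 and 296, 261, 249.6 and 287 CPM (0.08 ± 0.09). Tfec was at 3.44, 5.66 and 3.07 CPM in WT and 1.61, 2.47, 3.00 and 2.85 CPM in SgshKO (-0.71 ± 0.57, adjusted p = 0.582), and its groups did not overlap. These factors are known to be controlled by their place in the cell, which RNA does not measure.

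Among 24 genes of the folliculin, Rag and mTORC1 system tested, 5 were called higher and 0 lower, with a median of 0.05. Rragd, a Rag GTPase that is itself a target of MiT/TFE factors, was at 5.33, 4.21 and 3.46 CPM in WT and 23.7, 14.7, 15.6 and 16.8 CPM in SgshKO (2.04 ± 0.29, adjusted p = 4.55e-05). Fnip2, a partner of folliculin, was at 104, 104 and 99.4 CPM in WT and 228, 259, 268 and 219.7 CPM in SgshKO (1.25 ± 0.12, adjusted p = 2.42e-08). Flcn, folliculin, rose by 0.68 and Rragc by 0.62. 5 of 30 autophagy genes were called higher and 0 lower (median 0.08). They were the cargo receptors Optn (1.13) and Sqstm1 (0.52) and the ubiquitin-like proteins Gabarap (0.65), Map1lc3b (0.51) and Map1lc3a (0.50). The call of Map1lc3a was lost without SgshKO replicate 3 or any WT replicate (adjusted p of up to 0.176).

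Of 28 genes that build heparan sulfate, 1 was called higher and 0 lower, close to the 5.28% and 3.81% of all genes. Sdc4, a core protein at the cell surface and the gene called, was at 20.2, 25.6 and 23.4 CPM in WT and 53.2, 52.1, 53.2 and 52.8 CPM in SgshKO (1.19 ± 0.13, adjusted p = 8.95e-08), and the median was -0.04. Hs3st2, described above, belongs to the same pathway but was not on the list. The synthesis of other sulfated glycans was split, with 3 of 17 called higher and 4 lower (2 lower without WT replicate 3). Beside Chst2, the epimerase Dse rose (0.54). Chst7, a chondroitin 6-O-sulfotransferase, was at 119.8, 139 and 134 CPM in WT and 49.5, 62.2, 78.6 and 60.9 CPM in SgshKO (-1.06 ± 0.13, adjusted p = 1.92e-06), and the chondroitin 4-O-sulfotransferase Chst11 fell by 0.70 (SE 0.13).

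Genes of disease-associated microglia (DAM), a state described around plaques and in neurodegeneration, were higher by 3 weeks. 27 of the 40 listed genes were called higher and 3 lower, beside 5.28% and 3.81% of all genes. Their median was 0.88, and the groups did not overlap for 31, beside 22.5% of all genes. 6 of the 40 (Cst7, Ctsd, Ctsb, Ctsl, Cd63 and Cd68) are also on the lysosomal lists. Without SgshKO replicate 1 the counts were 26 higher and 4 lower. Apoe, apolipoprotein E, was at 689, 639 and 543 CPM in WT and 1400.2, 3154, 3703 and 2393 CPM in SgshKO (2.09 ± 0.31, adjusted p = 0.000168). Lyz2, lysozyme, was at 60.8, 67.2 and 63.9 CPM in WT and 274, 333, 337 and 291 CPM in SgshKO (2.27 ± 0.16, adjusted p = 6.92e-10). Both genes were lowest, among the SgshKO libraries, in replicate 1, the library with the high dissociation genes, and above every WT library there. Baiap2l2, an adaptor of actin and membrane, rose by 2.78, the chemokine gene Ccl3 by 1.85, and the growth factor gene Csf1 by 1.16. Clec7a, the beta-glucan receptor Dectin-1, rose by 1.34, Itgax, the integrin CD11c, by 1.12 and Axl, a receptor for apoptotic cells, by 0.94. These last 3 calls were lost when single libraries were left out (adjusted p of up to 0.0557 for Clec7a without WT replicate 1 or 2, 0.116 for Itgax without any but SgshKO replicate 3, and 0.181 for Axl without SgshKO replicate 1 or 3 or WT replicate 1 or 2).

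Not every gene of the state moved that way. Lpl, lipoprotein lipase (chr8:68880555-68906932), was at 94.7, 88.4 and 96.6 CPM in WT and 42.0, 35.6, 25.5 and 38.1 CPM in SgshKO (-1.39 ± 0.33, adjusted p = 0.00998). Cd34, a sialomucin, and the chemokine gene Ccl6 also fell (-0.80 and -0.77). None of the 3 showed overlap between the groups. Spp1, osteopontin, was at 3.23, 4.27 and 2.74 CPM in WT and 4.08, 4.23, 3.19 and 3.87 CPM in SgshKO (0.19 ± 0.61, adjusted p = 0.935). Gpnmb was at 2.74, 1.32 and 13.9 CPM in WT and 4.84, 0.380, 0 and 0.658 CPM in SgshKO (-1.89 ± 0.81, adjusted p = 0.199), and Trem2, the receptor upstream of the state, at 778, 802 and 652 and 667, 1155, 1203 and 977 CPM (0.43 ± 0.18, adjusted p = 0.172). Spp1, Gpnmb and Trem2 were chosen after their values were seen. The signalling partner of Trem2, Tyrobp, rose by 0.74.

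Some genes of resting microglia were lower, most of them by less. 9 of 28 listed homeostatic genes were called lower and 2 higher (median -0.23), and 7 and 1 without SgshKO replicate 1. Gpr165, an orphan receptor, was at 651, 689.7 and 566 CPM in WT and 132, 154, 139.6 and 134 CPM in SgshKO (-2.18 ± 0.24, adjusted p = 6.51e-06). Nav3, a neuron navigator, was at 469, 436 and 455 CPM in WT and 183, 151, 146 and 147 CPM in SgshKO (-1.53 ± 0.24, adjusted p = 0.000318). The groups lay far apart for both genes. Selplg fell by 0.71 (SE 0.10), Slco2b1 by 0.67 (SE 0.07) and Tmem119 by 0.44 (SE 0.09). P2ry12 was at 7675, 6736 and 6738 CPM in WT and 5574, 6073, 5422 and 5065 CPM in SgshKO (-0.35 ± 0.11, adjusted p = 0.0392), and Cx3cr1, which is also the sorting marker, at 9066, 8822 and 9425 and 7809, 7606, 7472 and 7364 CPM (-0.27 ± 0.08, adjusted p = 0.0243). Their adjusted p reached 0.21 and 0.111 when a single library was left out, P2ry12 keeping its call only without SgshKO replicate 2, and Cx3cr1 losing it without SgshKO replicate 3 or 4 or WT replicate 1 or 3. Lag3, an immune checkpoint receptor on the same list, went the other way, from 729, 758 and 691 CPM in WT to 1335, 1527, 1749.7 and 1419 CPM in SgshKO (1.05 ± 0.11, adjusted p = 3.34e-08).

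**Figure D4:**
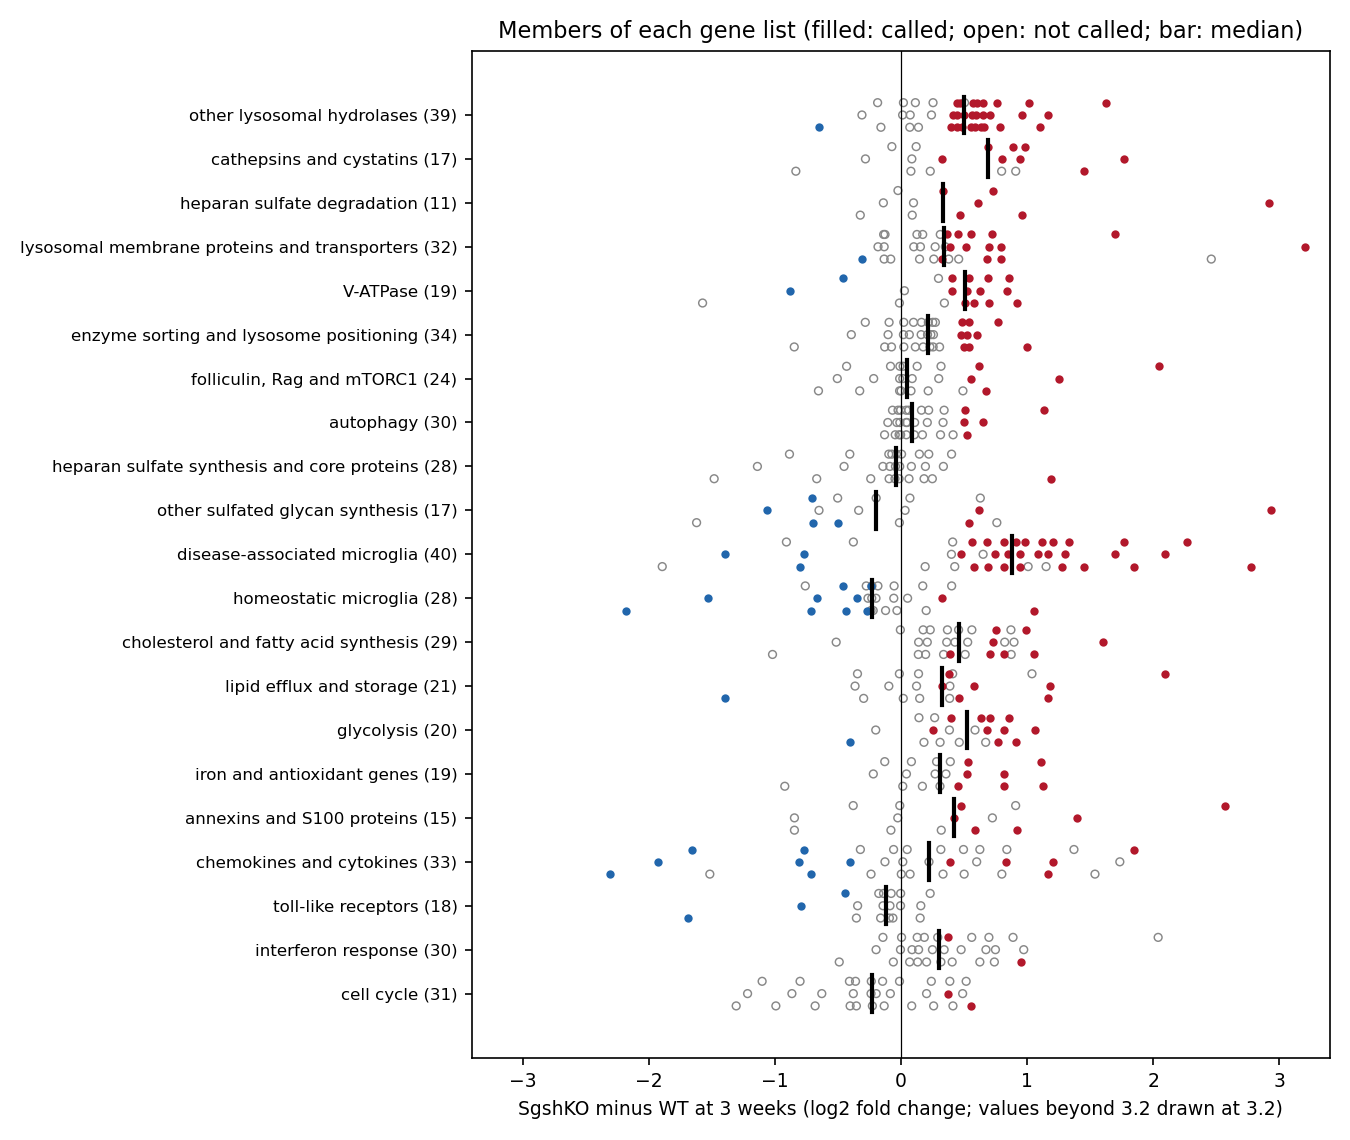
Log2 fold change at 3 weeks (x axis) of each tested member of 21 gene lists (y axis, number tested in brackets). Red and blue points are members called higher or lower, open points members not called, black bars list medians; of the 21 lists drawn, the DAM list has the median farthest from 0 (0.88), while the dissociation list, with a median of 0.997, is not drawn, and values beyond the axis (Mcoln2) are drawn at its edge.

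Immune receptors and mediators moved in both directions. Of all genes tested, 5.28% were called higher and 3.81% lower. Of 33 chemokine and cytokine genes with their receptors, 5 were called higher and 7 lower. Only 3 were called higher without SgshKO replicate 1, WT replicate 1 or WT replicate 3, and 4 lower without WT replicate 2. Il7r, the interleukin-7 receptor, was at 76.1, 73.2 and 72.8 CPM in WT and 31.0, 25.8, 15.97 and 20.3 CPM in SgshKO (-1.66 ± 0.23, adjusted p = 4.10e-05), and the chemokine gene Ccl9 fell by 0.81 (SE 0.13). 0 of 18 toll-like receptor genes were called higher and 3 lower. Tlr5, the flagellin receptor, was at 79.2, 64.0 and 89.9 CPM in WT and 23.7, 23.8, 25.5 and 23.7 CPM in SgshKO (-1.68 ± 0.16, adjusted p = 1.51e-08), and Cd14, the co-receptor for lipopolysaccharide, fell by 0.79 (SE 0.10). Of 15 complement genes, 4 were called higher and 0 lower (2 higher without SgshKO replicate 2 or 4 or WT replicate 1 or 2), with C3ar1, the C3a receptor, at 282, 306 and 337 CPM in WT and 652, 564, 548 and 575 CPM in SgshKO (0.92 ± 0.10, adjusted p = 5.71e-08). 2 of 30 interferon response genes were called higher, near the 5.28% of all genes, and 0 lower (median 0.30). Lgals3bp rose by 0.95 and was the only call left without SgshKO replicate 1 or 2 or any WT replicate. 6 of 23 Fc, scavenger and apoptotic cell receptors were called higher and 2 lower (3 higher without WT replicate 2), with the integrin subunit Itgav at -0.66. Of 23 integrins and adhesion molecules, 3 were called higher and 4 lower (1 higher without WT replicate 3). Among 19 antigen presentation genes, 4 rose and 1 fell: the class I genes H2-D1 (0.88), H2-K1 (0.60) and B2m (0.56) rose with their activator Nlrc5 (1.19), and the class II chaperone H2-DMa fell by 0.79 (SE 0.10). Genes with close copies, such as Lyz2, Ccl3 and the H2 genes, are uncertain where reads fit both copies.

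Growth factor signalling genes were called in both directions. Etv4, a PEA3 factor, was at 0.561, 1.14 and 0.335 CPM in WT and 5.13, 3.85, 5.71 and 2.85 CPM in SgshKO (2.67 ± 0.43, adjusted p = 5.31e-05). Mycl, a Myc family factor, was at 65.2, 89.7 and 84.5 CPM in WT and 30.0, 23.1, 22.1 and 28.3 CPM in SgshKO (-1.62 ± 0.31, adjusted p = 0.00214). The 2 factors moved apart, and of the 19 ERK feedback and PEA3 genes 1 was called higher and 3 lower, beside 5.28% and 3.81% of all genes. Eng, endoglin, a TGF-beta co-receptor, was at 295, 295 and 316 CPM in WT and 143, 147, 162 and 152 CPM in SgshKO (-1.0 ± 0.11, adjusted p = 1.44e-07) and was the only call among 20 TGF-beta genes. Pecam1, CD31, fell by 1.09 (SE 0.15). The endothelial and mural markers, of which Pecam1 is 1, summed to 73.4, 73.1 and 59.4 CPM in WT and 39.7, 36.3, 32.9 and 36.9 CPM in SgshKO, with 3 of the 10 at 0 in all 7 libraries (Cldn5, Ly6c1 and Kcnj8). Pecam1 made up most of that sum. Cdh5, which defines endothelium, was at 5.89, 6.68 and 4.41 CPM in WT and 8.31, 4.85, 6.29 and 5.55 CPM in SgshKO (0.14 ± 0.37, adjusted p = 0.912), and the pericyte gene Pdgfrb at 1.68, 2.47 and 1.56 and 0, 0.380, 0.194 and 0.438 CPM (-2.91 ± 0.64, adjusted p = 0.00231). The groups overlapped for Cdh5 and not for Pdgfrb.

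Lipid, iron and sugar metabolism rose in part. 8 of 29 genes of cholesterol and fatty acid synthesis were called higher and 0 lower (median 0.46), and 6 and 0 without SgshKO replicate 1. Insig1, which holds back the activation of sterol-sensing factors, was at 11.3, 12.8 and 15.97 CPM in WT and 38.2, 21.5, 27.5 and 23.8 CPM in SgshKO (1.05 ± 0.20, adjusted p = 0.000616). Fdft1, squalene synthase, was at 58.8, 55.6 and 58.6 CPM in WT and 118, 111, 117 and 112 CPM in SgshKO (0.99 ± 0.09, adjusted p = 6.86e-09). Both separated the genotypes without overlap. 7 of 21 genes of lipid efflux and storage were called higher and 1, Lpl, lower (4 higher on TPM and without WT replicate 2), with the lipid droplet protein Plin3 at 1.18. 10 of 20 glycolysis genes were called higher and 1 lower (0 lower without any single library; median 0.53), such as Tpi1 (1.06), Aldoa (0.85) and Pfkl (0.82). 7 of 19 iron and antioxidant genes were called higher and 0 lower, with both ferritin chains, Ftl1 (1.11) and Fth1 (0.82), and Hmox1, heme oxygenase (1.13).

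Stress and division genes were called higher in numbers near the 5.28% of all genes, with 2 of 19, 1 of 18 and 2 of 31 in the lists below. The 2 of the 19 integrated stress response genes were both enzymes of serine synthesis. Psat1 was at 19.4, 20.04 and 25.5 CPM in WT and 85.8, 64.2, 76.5 and 85.3 CPM in SgshKO (1.85 ± 0.27, adjusted p = 0.000111), and Phgdh rose by 0.62. 1 of 18 chaperones of the endoplasmic reticulum, Canx, was called higher (0.39). 2 of 31 cell cycle genes were called higher, Pcna (0.56) and Mcm3 (0.38), both of DNA replication, while the median of the list was -0.23. Mcm3 lost its call without WT replicate 1 (adjusted p = 0.0818).

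The early difference was then set beside the later ages. An interaction contrast tested whether the effect of the genotype at 8 months differed from that at 3 weeks, and 1301 genes (9.09% of those tested) were called in it, 842 with a higher and 459 with a lower effect at 8 months (653 and 671 on TPM). The number equals that at 3 weeks, but the genes are not the same. Of the 1301 genes called at 3 weeks, 364 (28.0%) were called different at 8 months and 937 were not. The change was larger at 8 months in 298 of the 364 and smaller or reversed in 66. Because the genes were chosen for their 3-week values, which also enter the contrast, these shares are a description. The differences at 4 months rest on 2 libraries per genotype and are given as values, and those at 8 months on 4 WT and 7 SgshKO libraries. Markers of other cells also moved at the later ages. At 8 months, 21.4% of all genes tested were called higher, against 5.28% at 3 weeks. The 10 neutrophil genes summed to 1.15 to 7.68 CPM in WT and 3021 to 14908 CPM in SgshKO at 4 months, and to 2.03 to 3.68 and 435 to 5852 CPM at 8 months, with 9 of the 10 called higher at 8 months and 0 at 3 weeks. The monocyte genes summed to 12.8 to 15.7 CPM in WT and 74.1 to 580 CPM in SgshKO at 8 months, with 6 of 10 called higher. The border macrophage genes summed to 19.3 to 38.8 and 80.2 to 132 CPM, with 7 of 9 called higher. Their part in the values at 4 and 8 months and in the interaction was not tested.

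**Figure D5:**
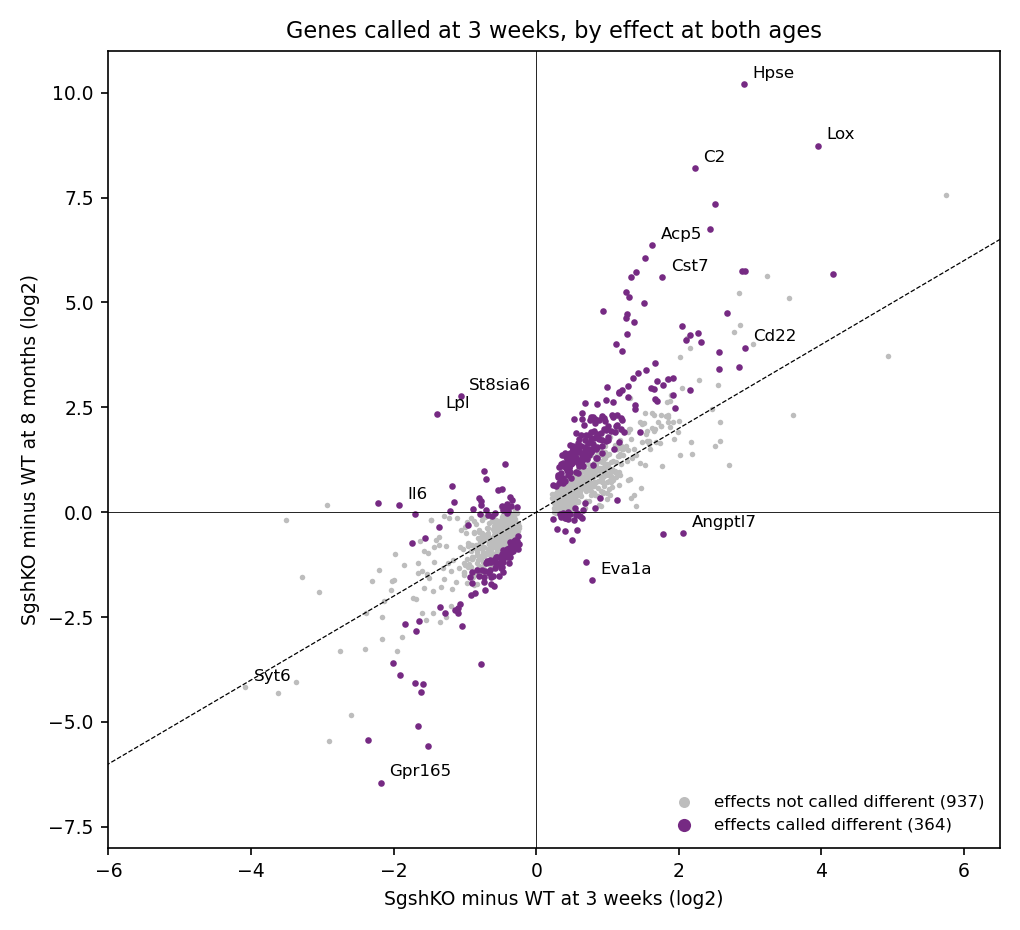
Log2 fold change at 3 weeks (x axis) and at 8 months (y axis) of the 1301 genes called at 3 weeks; the dashed line marks equal effects. Purple points are the 364 genes whose effects at the 2 ages were called different, among them Hpse and Lox above the line and Lpl and St8sia6, which are negative at 3 weeks and positive at 8 months.

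Of all genes tested, 9.09% were called in the interaction. For the 152 lysosomal genes the median was 0.37 at 3 weeks and 0.51 at 8 months, and 36 were called in the interaction. For the 40 DAM genes the median was 0.88 at 3 weeks, 2.08 at 4 months and 2.41 at 8 months, and 34 were called in the interaction. Over the same ages the median of the neutrophil list was 0.66, 11.15 and 9.23, that of the monocyte list -0.09, 5.10 and 3.43, and that of the border macrophage list 0.47, 1.35 and 1.87. The log2 difference of Ctsd was 0.95, 1.02 and 1.26 at 3 weeks, 4 months and 8 months (interaction adjusted p = 0.0528). That of Grn was 0.77, 0.53 and 0.71 (interaction adjusted p = 0.775). For Cst7 it was 1.77, 5.49 and 5.61 (interaction adjusted p = 4.88e-13). For Clec7a it was 1.34, 5.08 and 5.61 (interaction adjusted p = 5.27e-06). The interaction was called for Cst7 and Clec7a and not for Ctsd and Grn.

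Among the genes called both at 3 weeks and in the interaction, the fitted gains at 8 months were greatest in Hpse, C2, Armc2, Lox, Acp5, Ifitm2, Anxa2 and Gpx3. All 8 had few counts in WT at 8 months, with 1 to 56 counts over the 4 libraries, so the sizes and their order are imprecise. Armc2, an armadillo repeat protein, had 1 count in WT and 488 in SgshKO at 8 months, a ratio per library size of 248 (95% counting interval 44.4 to 9834), against 24 and 189 counts and a ratio of 5.81 (3.79 to 9.29) at 3 weeks. C2, a complement protease, had 3 counts in WT and 2096 in SgshKO at 8 months (ratio 356, interval 122 to 1726), against 27 and 178 counts and a ratio of 4.86 (3.23 to 7.59) at 3 weeks. These intervals cover counting error only. The 3-week call of Ifitm2, an interferon-induced membrane protein, was lost without SgshKO replicate 3 or WT replicate 2 or 3 (adjusted p of up to 0.118). With limma on voom weights, Ifitm2, Anxa2, C2 and Gpx3 all lost their 3-week calls (up to 0.193). Hpse, with 9 WT counts at 8 months, went from 2.92 at 3 weeks to 10.21 at 8 months (interaction 7.29, adjusted p = 7.09e-06). Gpx3, a secreted glutathione peroxidase, went from 2.44 to 5.13 and 6.75 (interaction 4.32, adjusted p = 5.19e-06). At 3 weeks Hpse, C2 and Gpx3 were below 2 CPM in every WT library. Of the cell cycle and interferon lists, 2 of 31 and 2 of 30 genes were called higher at 3 weeks, when 5.28% of all genes were, and 23 and 23 at 8 months, when 21.4% of all genes were. Their medians were -0.23 and 0.30 at 3 weeks and 1.34 and 1.55 at 8 months. In the interaction, 12 of 31 and 12 of 30 of their genes were called, beside 9.09% of all genes.

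For other genes the effect at 8 months was smaller or reversed. Lpl was lower at 3 weeks (-1.39) and higher at 4 months (3.26) and 8 months (2.34; interaction 3.74, adjusted p = 2.95e-05). St8sia6, a sialyltransferase, went from -1.06 to 1.34 and 2.77 (interaction 3.83, adjusted p = 5.51e-07). Eva1a, a regulator of autophagy, went the opposite way, from 0.78 to -1.16 and -1.62 (interaction -2.41, adjusted p = 1.05e-06). Angptl7, a secreted angiopoietin-like protein, was at 8.21, 9.63 and 4.30 CPM in WT and 22.6, 31.8, 37.9 and 31.1 CPM in SgshKO at 3 weeks (2.06) and its difference was -0.50 at 8 months (interaction -2.56, adjusted p = 0.0107). Il6, interleukin 6, was at 2.32, 3.61 and 3.41 CPM in WT and 1.19, 1.14, 0 and 0.731 CPM in SgshKO at 3 weeks (-1.93) and differed by 0.17 at 8 months (interaction 2.10, adjusted p = 0.043, of up to 0.104 with a single library left out). Dnajb13, a DnaJ family protein, was at 1.19, 1.75 and 1.23 CPM in WT and 10.2, 1.33, 2.71 and 4.75 CPM in SgshKO at 3 weeks (1.78), with overlapping groups, and differed by -0.52 at 8 months (interaction -2.30, adjusted p = 0.0275, of up to 0.0824 with a single library left out). Bbs9, a subunit of the BBSome that carries cargo in cilia, went from 0.70 to 0.41 and -1.18 (interaction -1.88, adjusted p = 1.76e-06). Several of these calls at 3 weeks rest on few libraries: leaving out 1 library raised the adjusted p to 0.102 for St8sia6 (without SgshKO replicate 2 or 3 or WT replicate 1 or 3), 0.0841 for Eva1a (without WT replicate 1 or 3), 0.0612 for Angptl7 (without WT replicate 3), 0.0638 for Il6 (without WT replicate 2), 0.0827 for Bbs9 (without WT replicate 2 or 3) and 0.194 for Dnajb13 (without SgshKO replicate 1 or 4 or any WT replicate). Other processing raised the 3-week adjusted p to 0.362 for Dnajb13, 0.2955 for St8sia6 and 0.0777 for Angptl7. 49 genes called at 3 weeks and in the interaction had opposite signs at the 2 ages, and 18 of these were called at both.

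Other strong early differences are set beside their later values. Cd22 was at 2.93, 2.94 and 3.92 at the 3 ages and Ly9 at 2.85, 2.87 and 3.46. Syt6 was at -4.08, -2.95 and -4.17 (interaction adjusted p = 0.949), and Ccr3 at -2.76, -2.59 and -3.30 (interaction adjusted p = 0.725). The interaction was called for Cd22 (0.99) and Ly9 (0.61). A difference that was not called does not show that the effects are equal.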

How the data were processed

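The authors' deposited table holds raw read counts per gene, 24940 genes by library, and a second deposited table holds TPM, a length-scaled unit. Per the submitters' processing notes, STAR 2.5.3a, kallisto 0.44.0, HOMER 4.11, DESeq2 1.36.0, R 4.2.3 and the mm10 build were used. The role of each, the annotation and whether counting used strand are not given in the sources used here. Counts of a gene and its antisense partner therefore may not be separate. The deposited TPM summed to 546451 to 564513 per library at 3 weeks.

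From the counts, 1 edgeR 4.0.16 model (R 4.3.3) with 6 group means over the 22 libraries of the age series was fitted: TMM scaling, filterByExpr with a minimum count of 10, robust quasi-likelihood fit, Benjamini-Hochberg adjustment over the 14309 genes tested. The contrasts were SgshKO minus WT at each age, and that at 8 months minus that at 3 weeks. Standard errors are the fold change divided by the root of F. On simulated counts for the comparison at 3 weeks, with 13894 genes, 58.7% of the 92 genes changed by 1 (log2) were recovered. Of the 95 changed by 0.5, 29.5% were recovered, and there were 4 false calls. Counting intervals cover counting error only.

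Named genes were the 12 with the largest rise and the 12 with the largest fall among those called, without overlap between groups and at 1 CPM or more, the 5 most abundant called each way, up to 4 called members of each list in each direction by fold change, Sgsh, Hpse and the MiT/TFE factors, and the 8 with the largest gain and the 8 with the largest loss of effect at 8 months. Genes and lists were chosen with earlier results of these data known. Fos, Mcoln1, Mcoln2, Map1lc3a, Cdh5, Pdgfrb, Slc1a3, Camk2a and the sex-linked and marker genes fall outside that rule and were chosen after their values were seen. Same-numbered WT and SgshKO libraries correlated with r of -0.144, 0.115 and -0.171 in their deviations from the group means, so the numbers were not taken as pairs. Alternatives were other scalings and filters, DESeq2 1.42.0, limma 3.58.1 on voom weights or log2(TPM + 1), the 7 libraries alone, and each library left out. TCACGTGA and CACGTG were counted in RefSeq promoters (GRCm38.p6).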

Additional observations from a re-analysis of the deposited data

Results flagged for a closer look

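In 7 of the 166 sets of SgshKO values tested at 3 weeks, each for 1 named gene or 1 summed gene list, 1 of the 4 libraries lay apart from the rest of its group by a gap large against the whole range. Chance gives such a gap in about 1 in 20 groups. The library was high for Camk2a at 22.5 CPM in replicate 1 against 13.7 to 14.6 CPM in the others, Gpnmb at 4.84 CPM in replicate 1 against 0 to 0.658 CPM in the others, Nav3 at 183 CPM in replicate 1 against 146 to 151 CPM in the others, Nr4a1 at 39.6 CPM in replicate 1 against 10.2 to 14.9 CPM in the others and Tlr5 at 25.5 CPM in replicate 3 against 23.7 to 23.8 CPM in the others. It was low for Cd22 at 57.8 CPM in replicate 4 against 65.3 to 66.2 CPM in the others and Pecam1 at 24.4 CPM in replicate 3 against 28.1 to 28.4 CPM in the others. Of these genes, Gpnmb was not called at 3 weeks.

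Named genes whose genotype effect differed between 8 months and 3 weeks by the interaction test are given here with the log2 difference of the 2 effects, 8 months minus 3 weeks. Among genes above WT at 3 weeks, called there or not, the difference was positive and greatest in these fits for Hpse (7.29), C2 (5.97), Spp1 (5.53), Armc2 (4.83), Lox (4.79), Acp5 (4.74), Ifitm2 (4.52), Anxa2 (4.32), Gpx3 (4.32), Clec7a (4.27), Axl (3.86), Cst7 (3.84), Itgax (2.90), Mpzl1 (2.86), Chst2 (2.83), Rragd (2.40), Etv4 (2.07), Apoe (2.01), Lyz2 (2.01), Csf1 (1.71), Lrguk (1.51), H2-D1 (1.32), Fth1 (1.30) and Tpi1 (1.25). It was positive but smaller for Optn (1.19), Ctsl (1.15), Pld3 (1.04), Lgals3bp (1.02), Aldoa (1.01), Cd22 (0.99), Cd63 (0.95), Anxa5 (0.84), H2-K1 (0.84), Anxa4 (0.81), Plin3 (0.81), Ftl1 (0.81), Tyrobp (0.77), Ctss (0.75), B2m (0.73), Plekhm2 (0.73), Ly9 (0.61), Cd68 (0.60), Npc2 (0.50), Atp6v1a (0.50), Mpeg1 (0.46), Ctsb (0.46), Gabarap (0.46) and Lamp1 (0.35). Among genes below WT at 3 weeks it was negative, so that the shortfall was larger at 8 months, for Gpr165 (-4.26), Il7r (-3.44), Setbp1 (-3.07), Mycl (-2.66), Pecam1 (-1.32), Tlr5 (-1.14), Chst7 (-1.12), Atp6v0a2 (-0.97), Tmem119 (-0.58), Slco2b1 (-0.52), Selplg (-0.50), Csf1r (-0.48), P2ry12 (-0.45), Tmem63a (-0.44) and Cx3cr1 (-0.43). It was positive for genes below WT at 3 weeks in the case of Gpnmb (7.73), St8sia6 (3.83), Lpl (3.74), Cnn2 (2.43), Il6 (2.10), Cd34 (1.14), Ccl6 (0.95), Chst11 (0.76) and H2-DMa (0.75). It was negative for genes above WT at 3 weeks in the case of Angptl7 (-2.56), Eva1a (-2.41), Dnajb13 (-2.30), Bbs9 (-1.88), Slc1a3 (-1.17), Hsp90aa1 (-0.58) and Flcn (-0.46). Of the genes listed as below WT, Csf1r (adjusted p = 0.385) and Gpnmb were not called at 3 weeks, and the groups overlapped for Gpnmb. Cnn2, Hsp90aa1, Il6, Lamp1, P2ry12 and Flcn lost the interaction call in 6 or more fits that left out a single library. The values of C2 and Armc2 rest on 3 counts and 1 count in WT at 8 months and are no measured folds. Neutrophil, monocyte and border macrophage markers were also higher in SgshKO at 8 months, and their part in these differences was not tested.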

How the results depend on the processing

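The count of genes called at 3 weeks ranged from 870 to 1178 with each of the 7 libraries left out in turn, that of genes called higher from 543 to 730 and that of genes called lower from 327 to 464. Genes called in the interaction ranged from 919 to 1474 with each library of the 2 ages left out, those higher from 616 to 902 and those lower from 303 to 572. Without WT replicate 1 or 2, 349 and 327 genes were called lower at 3 weeks, and without WT replicate 1 the interaction had 303 lower. Requiring a 2-fold change left 295 genes. With the replicate number as a block, 1164 genes were called at 3 weeks and 1034 in the interaction, and the block kept 245 of 273 values of named genes on their side of the threshold. The block rests on a number that the labels do not explain. DESeq2 called 881 higher and 721 lower, RLE scaling 728 and 604, voom 698 and 612, the 7 libraries alone 926 and 795, and no filter on low counts 691 and 495. The difference of Ddx3y and Xist as a covariate gave 759 and 559, and a filter of 1 CPM 785 and 579. Xist was abundant and Ddx3y nearly absent in all 7 libraries of 3 weeks, so that covariate is no test of sex there. On TPM, 601 were called higher with 752 lower at a pseudocount of 1, 725 lower at 0.1, and 541 higher with 803 lower without a filter. No value of a named gene reversed under these settings, while the balance of directions over all genes did on TPM, a fit that also changed the tool and the genes tested. Of the 169 named genes called at 3 weeks, 116 were called in all 18 settings, and 1014 of 1152 list counts stayed within 1.5 times. Genes under about 1 CPM rest on few counts, and small changes there were not detectable at this depth.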

Other observations

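Families outside the lists were looked at after the values were seen. Their counts are to be read beside the 5.28% of all genes called higher and the 3.81% called lower. Cytosolic ribosomal protein genes summed to 2375, 2429.5 and 1996 CPM in WT replicates 1 to 3 and 2174.5, 3414, 3676 and 2988 CPM in SgshKO replicates 1 to 4. The groups overlapped through SgshKO replicate 1, the library with the high dissociation genes. Of 78 tested, 16 were called higher and 0 lower, with a median log2 fold change of 0.44. Without that library 34 were called higher, and on TPM 10. Among 77 genes of the respiratory chain and ATP synthase, 1 was called higher and 0 lower (median 0.18), and 7 higher without SgshKO replicate 1. Among 40 proteasome subunits, 1 was called higher and 0 lower, with a median of 0.04.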
